A study of Mus musculus with 8 samples.

Results

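Small nucleolar RNA (snoRNA) gene entries were examined in whole mouse embryos made from Tet3-null and wild-type (WT) oocytes. The deposited tables list 104 entries whose symbol begins with Snora or Snord among 23234 genes. The 74 described here were selected on these same measurements, as entries with at least 1 FPKM in at least 2 of the 8 libraries. FPKM is a fragment count scaled by gene length and by the library's mapped total. How length was scaled for genes shorter than the sequenced fragments is not given in the sources used here. FPKM is therefore not read here as a ranking of amounts between entries of different length. No label or header names the unit, which is inferred from the software in the submitters' processing notes (Cufflinks) and from the values. Of the 30 other entries, 21 were listed at 0 in every library and 8 reached 1 FPKM in exactly 1 library, the highest being Snord45c at 745 FPKM. Among members, the lowest second-highest value over the libraries was 9.2 FPKM, for Snora26, and the highest such value outside the set was 0.000423 FPKM. By symbol, 32 members are of the box H/ACA class (Snora) and 42 of the box C/D class (Snord).

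snoRNAs are short nucleolar RNAs that guide chemical changes of ribosomal and spliceosomal RNA. Box C/D snoRNAs direct ribose methylation and box H/ACA snoRNAs direct pseudouridylation, each inside its own set of core proteins. In mammals most are cut out of introns of host genes, many of which encode ribosomal proteins or are non-coding RNAs such as Gas5 and the Snhg genes, and the mature snoRNA carries no poly(A) tail.

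The study asked how embryonic transcripts depend on oocyte Tet3, an enzyme that oxidizes methylated cytosine in the zygote. Tet3-null oocytes came from females with a floxed and a deleted Tet3 allele and Zp3-Cre, a transgene expressed in growing oocytes, while WT oocytes came from f/f females, for which the labels mention no Cre. All females were superovulated, all oocytes were fertilized in vitro by CAST/EiJ sperm, so every embryo also received a paternal Tet3 allele, and both groups grew in the same culture medium. The 4 groups of 2 libraries were Tet3-null and WT 2-cell embryos (pools of 10, at 30 h) and Tet3-null and WT blastocysts (pools of 7, at 96 h). The cDNA was made with a SMARTer kit and was then sheared to about 150 bp. Such kits are generally known to prime at poly(A) tails, though the labels do not state the primer. Nothing in the labels says that a group's 2 libraries had separate mothers. The p-values thus cover only the spread between samples, and that spread may be technical. In bulk pools, fewer cells of a kind and less RNA per cell cannot be told apart.

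Sequences are shown for the entries on which the comparisons turn. All 104 entries matched a snoRNA symbol in the GENCODE M21 annotation of GRCm38, and the sequences come from that genome on the transcript strand, because no genome of the authors' build (mm9) was used. Capitals mark box C (TGATGA, searched in the first 22 nt) and box D (CTGA, last 14 nt) of Snord entries, or ACA (last 8 nt) of Snora entries. The first 2 were called between genotypes in 2-cell embryos, and the other 5 are members called between stages in at least 1 genotype.
Snord11: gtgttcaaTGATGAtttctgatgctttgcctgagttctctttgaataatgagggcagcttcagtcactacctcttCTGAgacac
Snord47: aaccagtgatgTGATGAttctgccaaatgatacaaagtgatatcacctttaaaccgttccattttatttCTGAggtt
Snora47: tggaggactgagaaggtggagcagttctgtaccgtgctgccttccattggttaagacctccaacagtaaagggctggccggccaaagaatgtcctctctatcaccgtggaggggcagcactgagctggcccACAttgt
Snora21: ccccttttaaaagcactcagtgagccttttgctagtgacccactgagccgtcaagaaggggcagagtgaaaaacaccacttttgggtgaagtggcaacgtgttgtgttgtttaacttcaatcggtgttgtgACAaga
Snord52: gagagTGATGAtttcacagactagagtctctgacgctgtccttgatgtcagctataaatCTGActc
Snord96a: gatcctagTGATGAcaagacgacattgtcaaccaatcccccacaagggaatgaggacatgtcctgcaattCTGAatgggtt
Snord100: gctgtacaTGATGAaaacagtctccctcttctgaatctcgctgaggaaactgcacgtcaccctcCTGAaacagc
Snord11 (84 nt) lies on chromosome 1, plus strand, in an intron of Nop58. Snord47 (77 nt) lies on chromosome 1, plus strand, in Gas5 and overlaps an annotated exon. An exon here is an exon of any annotated transcript of the host, so an overlap does not by itself place the entry in the spliced host RNA. Snora47 (138 nt) lies in an intron of Zbed3 on chromosome 13, plus strand, and Snora21 (137 nt) in an intron of Rpl23 on chromosome 11, minus strand. Snord52 (66 nt) overlaps an exon of 1110038B12Rik on chromosome 17, minus strand, Snord96a (81 nt) an exon of Gnb2l1 on chromosome 11, plus strand, and Snord100 (74 nt) an exon of Rps12 on chromosome 10, minus strand. The CTGA letters were found in 42 of 42 member Snord entries and in 89.7% of all 68, TGATGA in 31 of 42 and in 63.2% of all 68, and ACA in 28 of 32 member Snora entries and in 88.9% of all 36. Any entry without exactly 1 distinct annotated sequence was not searched and counts here as without a match. A match describes the letters of the window and no more. Snord72, for example, ends with CTGA but has no TGATGA in its first 22 nt.

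Tet3 itself was at 3.28 and 4.41 FPKM in Tet3-null 2-cell embryos, against 10.8 and 7.54 FPKM in WT 2-cell embryos. Blastocyst values were 0.519 and 0.412 FPKM for Tet3-null and 0.957 and 0.459 FPKM for WT, with overlapping groups, so Tet3 gives no check of the genotype labels there. Stage markers followed the stage labels. The summed level of 5 listed 2-cell-stage marker genes was 0.73 to 3.42 FPKM in blastocysts against 1000 to 1866 FPKM in 2-cell embryos, and 9 blastocyst markers summed to 3054 to 4801 FPKM in blastocysts against 178 to 219 FPKM in 2-cell embryos. Of markers of other cells, 6 cumulus and granulosa genes summed to 0.44 to 0.91 FPKM in blastocysts and 14.5 to 30.0 FPKM in 2-cell embryos, with Amh at 0 throughout, and 4 sperm genes to between 4.31 and 20.3 FPKM in any library. Blood genes were at most 0.00939 FPKM in sum, with Hbb-b1 at 0. The part of these cells in the results was not tested. Read totals are unknown. Within a stage, depth estimated from the spacing of low values differed at most 1.31-fold, and the total FPKM of a library was between 600495 and 956335.

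Short entries had very high FPKM and were often listed at 0. The 74 members together held between 3.42% and 6.33% of all FPKM of a library. Box H/ACA members were 121 to 196 nt long (median 132.5 nt) and box C/D members 66 to 238 nt (median 79.5 nt). There were 35 members under 100 nt, all box C/D. These and the 35 members of 100 to 150 nt (110 to 149 nt) were all shorter than the average sheared cDNA of about 150 bp. For these 35 the smallest value above 0.01 FPKM in any library had a median of 220.9 FPKM (13.9 to 1249), against 16.3 FPKM (1.16 to 1889) for 35 members of 100 to 150 nt. Across all 74 the smallest value fell with length (Spearman's rho -0.65, n = 74 entries that share the same libraries, a description only). Of the 592 values of members, 131 (22.1%) were listed at 0, with 31.8% of values at 0 under 100 nt, 15% at 100 to 150 nt and 0 of 32 in the 4 longer members. The host genes of the members, 53 in all, were listed at 0 in none of 424 values.

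**Figure D1:**
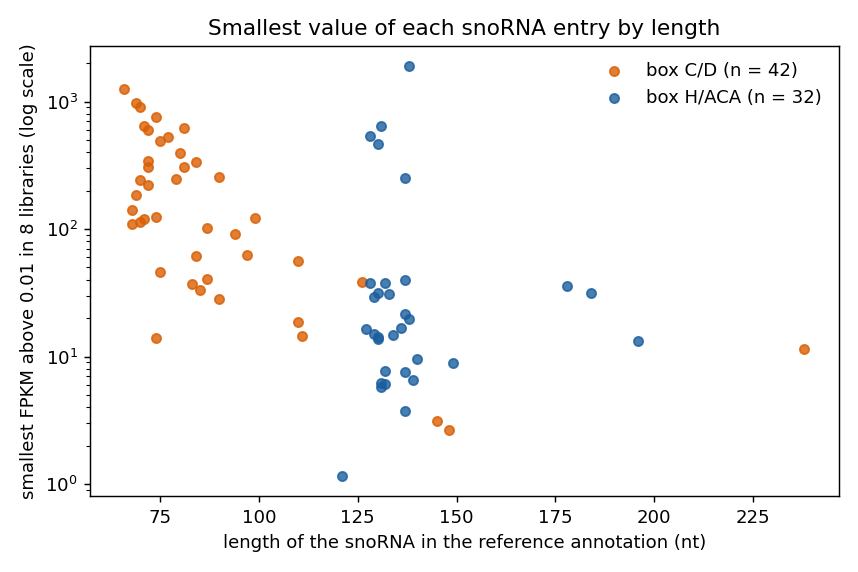
Smallest FPKM above 0.01 of each of the 74 snoRNA entries over the 8 libraries (log axis) against its length in nt, for 42 box C/D and 32 box H/ACA entries. The shortest entries sit highest, with a median of 220.9 FPKM under 100 nt and 16.3 FPKM between 100 and 150 nt.

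Many values of short entries came in whole steps. After scaling for relative depth, a member's values within a stage were compared with its own smallest value above 0.01 FPKM. All non-zero values lay within 0.15 of a whole multiple of up to 10 in 32 of 56 member-stage sets under 100 nt (57.1%), in 15 of 66 sets at 100 to 150 nt (22.7%) and in 0 of 8 sets of longer members, against 4 of 106 sets for host genes (3.77%). The smallest value of a set is 1 step by construction, so sets with fewer non-zero values meet this rule more easily. Values at 0 made up 31.8% under 100 nt, 15% at 100 to 150 nt and none in hosts. Nearly equal values also meet the rule. The part of these 2 features in the shares was not tested. Snord83b, in an intron of Rpl3, shows the pattern: its blastocyst values were 2.98 and 2.95 steps in Tet3-null and 1 and 2.99 steps in WT, and its 2-cell values 3.03 and 6.91 steps in Tet3-null and 1 and 2.01 steps in WT. In FPKM these were 208 and 212 in Tet3-null and 91.6 and 242 in WT blastocysts, and 339 and 926 in Tet3-null and 137 and 248 in WT 2-cell embryos. The 2-cell libraries thus differed from each other by 1 to 6 steps, and the blastocyst libraries by 0 or 2 steps. Whether a step is 1 fragment cannot be read from FPKM without counts.

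The 2 libraries of a group differed far more for snoRNA entries than for their hosts. In Tet3-null and WT 2-cell embryos the median absolute log2 difference between libraries was 0.86 and 1.13 for the 74 members, 0.27 and 0.21 for the 53 hosts and 0.36 and 0.23 for all 13549 genes tested. In Tet3-null and WT blastocysts it was 0.52 and 0.81 for members, 0.09 and 0.06 for hosts and 0.14 and 0.15 for all genes. In 37 of 74 members some group had 1 library at 0 and the other at 1 FPKM or more. Snord65, in a locus of 3 neighbouring snoRNAs in 2410006H16Rik introns, was at 0 and 6793 FPKM in Tet3-null 2-cell embryos and at 0 and 1081 FPKM in WT 2-cell embryos. Snord99, in the non-coding host Snhg12, had 5989.9 and 754 FPKM in Tet3-null blastocysts, against 0 and 1735 FPKM in WT blastocysts. Snora20, in an intron of the chaperonin gene Tcp1, was at 0 in every blastocyst and at 0 and 1679 FPKM in Tet3-null and 0 and 534 FPKM in WT 2-cell embryos. Members at 0 numbered 17 and 19 in Tet3-null and 28 and 15 in WT 2-cell libraries, and 11 and 11 in Tet3-null and 14 and 16 in WT blastocyst libraries.

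**Figure D2:**
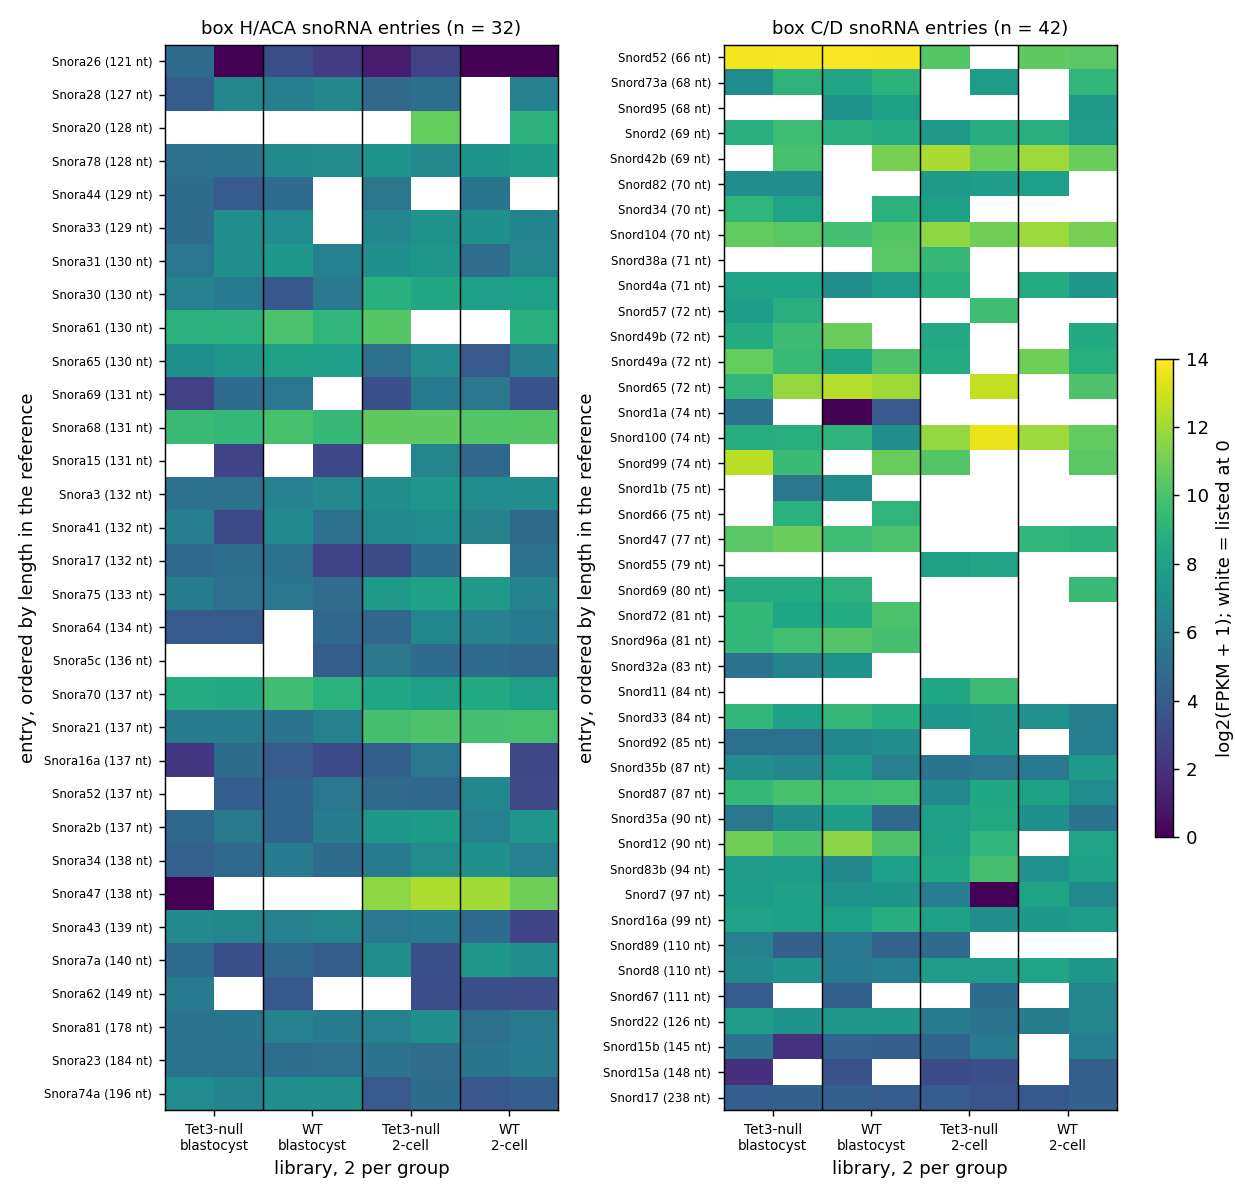
Level of each of the 74 snoRNA entries as log2(FPKM + 1), colour scale, in each of the 8 libraries (columns, 2 per group), with rows ordered by length in nt and white for values listed at 0. White cells are more frequent among box C/D entries under 100 nt, and Snord52 is brightest in all 4 blastocyst libraries.

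A set of 29 members, steadier than all 74 but not than the hosts, was at 1 FPKM or more in all 8 libraries. Their median absolute log2 difference between libraries was 0.49 and 0.81 in Tet3-null and WT 2-cell embryos. It was 0.39 and 0.54 in Tet3-null and WT blastocysts. Requiring 1 FPKM in every library leaves out all members with a library at 0, so a smaller difference was partly built into this set. Over all 74 members, the 8 with the highest mean log2 level were Snord104, Snord52, Snord100, Snora68, Snord2, Snora70, Snord87 and Snord65. Snord52 and Snord65 are outside the steadier set. Snord17, the longest member (238 nt, in an intron of the sorting nexin gene Snx5), varied little, at 17.1 and 18.3 FPKM in Tet3-null and 18.4 and 15.5 FPKM in WT blastocysts, and at 15.6 and 11.5 FPKM in Tet3-null and 13.5 and 19.7 FPKM in WT 2-cell embryos. Snora23 (184 nt, in an intron of the import receptor gene Ipo7) ranged between 31.3 and 50.6 FPKM over the 8 libraries. Snord16a, in the ribosomal protein gene Rpl4, ranged between 123 and 416 FPKM, and Snord2, in the translation factor gene Eif4a2, between 184 and 794 FPKM. Snord35a, in Rpl13a, and Snord35b ranged over 28.1 to 356 and 40.2 to 191 FPKM, and Snora31 and Snora41, in Tpt1 and Eef1b2, over 31.6 to 177 and 7.72 to 112 FPKM. Limma called none of these last 4 in any comparison. In 2-cell embryos their genotypes did not overlap, with Snord35a, for example, at 251 and 356 FPKM in Tet3-null and 131 and 40.1 FPKM in WT (log2 change 2.03, limma adjusted p = 0.26). Of all genes, 0.613% had a call upward and 2.1% downward in that comparison, which is a share of calls and not of separated groups. With 2 libraries a group, groups often separate by chance, and the share of members or genes that did was not counted. The values of Snora31 and Snora41 were also higher in Tet3-null and those of Snord35b lower (log2 changes of 1.5, 1.18 and -1.13).

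In 2-cell embryos, 3 of 74 members were called between genotypes, each by being listed at 0 in both libraries of one genotype. Calls are from limma on log2(FPKM + 1) over 13549 genes, at a Benjamini-Hochberg adjusted p of 0.05. Called members were 2 higher and 1 lower in Tet3-null 2-cell embryos, against 0.613% of all genes with a call upward and 2.1% downward. Unadjusted p was under 0.05 for 9 of 74 members and for 3212 of 13549 genes. The median log2 change was 0.18 over members and -0.17 over all genes. The count of members called was 13 without Tet3-null 2-cell replicate 1 and 6 without WT 2-cell replicate 1.

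Snord11, whose host gene Nop58 encodes a core box C/D protein, was at 337 and 769 FPKM in Tet3-null 2-cell embryos and at 0 in both WT 2-cell libraries. It was at 0 in all 4 blastocyst libraries too. The 2 Tet3-null values are 1 and 1.91 steps, and the fitted difference was 9.0 on the log2(FPKM + 1) scale (SE 0.35, limma adjusted p = 0.00014), a size set by the pseudocount because WT is at 0. With the 2-cell libraries fitted alone its limma adjusted p was 0.137. Nop58 reached 141 and 101 FPKM in Tet3-null and 138 and 160.5 FPKM in WT 2-cell embryos, with overlapping groups and no call (log2 change -0.32, limma adjusted p = 0.32).

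Snord55, also of the box C/D class, was at 245 and 289.9 FPKM in Tet3-null 2-cell embryos, 1.01 and 1 steps, and at 0 in the 2 WT 2-cell libraries and the 4 blastocyst libraries. Its fitted difference was 8.06 (SE 0.17, limma adjusted p = 2.72e-06). Snord11 and Snord55 are members only through the 2 Tet3-null 2-cell libraries, so their inclusion already required that difference.

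Snord47 ran the other way. It was at 0 in both Tet3-null 2-cell libraries and at 583 and 532 FPKM in WT 2-cell libraries, which are 1 and 1.01 steps (fitted difference -9.12, SE 0.19, limma adjusted p = 2.72e-06). Its host Gas5, a non-coding RNA whose introns hold many snoRNAs, reached 60.6 and 60.8 FPKM in Tet3-null and 62.5 and 71.4 FPKM in WT 2-cell embryos (log2 change -0.14, limma adjusted p = 0.63). In blastocysts Snord47 was present in every library, at 1362 and 1815 FPKM in Tet3-null and 790.1 and 1045 FPKM in WT, with groups that did not overlap and no call (log2 change 0.79, SE 0.19, limma adjusted p = 0.52).

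**Figure D3:**
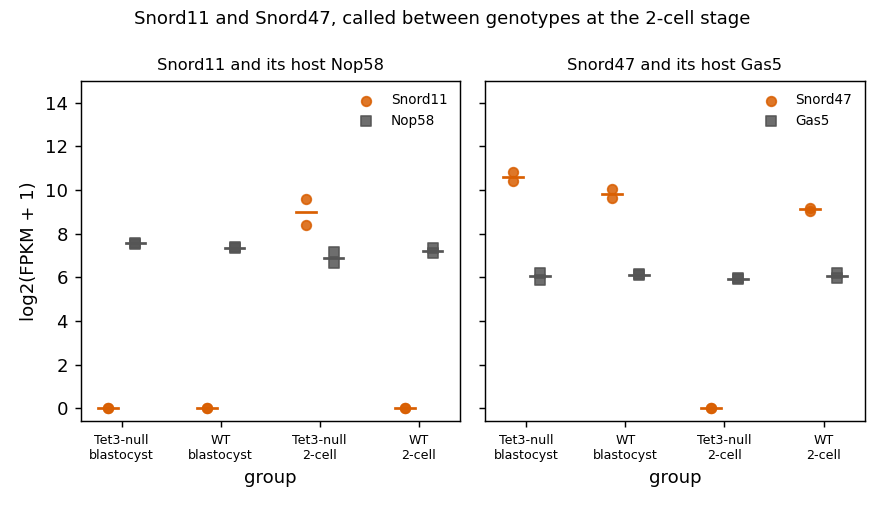
Levels as log2(FPKM + 1) of Snord11 and Snord47 (circles) and of their hosts Nop58 and Gas5 (squares) in the 2 libraries of each group, with a line at the group mean. Each snoRNA is at 0 in 1 genotype at the 2-cell stage, while its host is at a similar level in both genotypes.

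In blastocysts no member was called between genotypes by limma, against 0.0148% of genes called higher and 0.0517% lower in Tet3-null. Unadjusted p was under 0.05 for 10 of 74 members and for 740 of 13549 genes. Leaving out 1 library gave up to 2 calls, and fitting the blastocyst groups alone called 1 member, Snord82. Several entries still had every library of a genotype at 0, and 3 of them are named here after their values were seen. Snord82, in an intron of the nucleolin gene Ncl, had 114 and 115 FPKM in Tet3-null and 0 in both WT blastocyst libraries (limma adjusted p = 0.71), and Snord57, in the box C/D protein gene Nop56, had 221 and 447 FPKM in Tet3-null and 0 in both WT blastocyst libraries (limma adjusted p = 0.71). Snord95, in Gnb2l1, was at 0 in both Tet3-null blastocyst libraries and at 142 and 251 FPKM in WT blastocysts (limma adjusted p = 0.59). In steps these values are 1.02 and 1 for Snord82, 1 and 1.96 for Snord57 and 1 and 2 for Snord95. Each of the 3 also split between the 2 libraries of a 2-cell group, with Snord82 and Snord95 at 0 in 1 WT library and Snord57 at 0 in 1 Tet3-null library. Snord57 was at 0 in all 4 WT libraries and Snord95 in all 4 Tet3-null libraries, so each is a member only through the other genotype and a genotype difference was built into its inclusion.

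The genotype effect differed between stages for 1 member upward and 2 downward, against 0.0517% of all genes upward and 0.0886% downward. They were Snord47, Snord11 and Snord55, with blastocyst minus 2-cell effects of 9.91, -9.0 and -8.06 (limma adjusted p = 2.15e-05, 0.00053 and 2.15e-05). Without Tet3-null 2-cell replicate 1 the count of such members was 11, and it was 5 without WT 2-cell replicate 2 or without WT blastocyst replicate 1. These tests use the same 2-cell values as the 2-cell comparison and add no independent evidence.

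Between stages, calls of members went in both directions. In Tet3-null embryos 9 of 74 members were called higher in blastocysts (12.2%) and 15 lower (20.3%), against 38.9% of all genes upward and 35.1% downward. In WT embryos 12 members were called higher (16.2%) and 13 lower (17.6%), against 35.8% of all genes upward and 38.4% downward. The difference of these shares was not tested. There were 16 members called in both genotypes (21.6% of the 74), each with the same sign in both, and 6 of them were higher in blastocysts. Over all genes, 8937 were called in both (66% of those tested), of which 8921 had the same sign.

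Counts by class pointed in opposite directions. Of 42 box C/D members, 8 were higher and 4 lower in Tet3-null blastocysts than in Tet3-null 2-cell embryos, and 8 higher and 3 lower in WT. Of 32 box H/ACA members, 1 was higher and 11 lower in Tet3-null, and 4 higher and 10 lower in WT. Median log2 changes were 1.94 in Tet3-null and 0.73 in WT for box C/D, and -1.12 in Tet3-null and -0.55 in WT for box H/ACA, against 0.09 in Tet3-null and -0.08 in WT over all genes. Class and length move together here, since every member under 100 nt is box C/D, and their parts cannot be told apart. The 6 members that passed the minimum only through blastocysts are all box C/D. Of these, Snord72 and Snord96a were called higher in both genotypes and Snord32a in Tet3-null. Of the 4 that passed only through 2-cell embryos, Snora47 was called lower in both genotypes, and Snord11 and Snord55 in Tet3-null. The direction of these calls was built into their inclusion, and their part in the counts and medians was not tested.

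Among members lower in blastocysts, Snora47 is a member only through its 2-cell values, so a stage difference was built into its inclusion and its size is set by the pseudocount. In Tet3-null blastocysts it was listed at 1.55e-06 and 0 FPKM and in WT blastocysts at 0 in both libraries, against 3105 and 5021 FPKM in Tet3-null and 4248 and 1889 FPKM in WT 2-cell embryos (fitted differences -11.95 and -11.47, limma adjusted p = 6.66e-07 and 8.99e-07). Its host Zbed3, a member of the subcortical maternal complex of mouse oocytes, reached 0.306 and 0.334 FPKM in Tet3-null and 0.164 and 0.52 FPKM in WT blastocysts, against 687 and 1454 FPKM in Tet3-null and 510.2 and 439 FPKM in WT 2-cell embryos. Here the snoRNA and its host fell together.

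Snora21, in an intron of the ribosomal protein gene Rpl23, was lower in blastocysts of both genotypes. It averaged 53.8 ± 4.29 FPKM in Tet3-null and 54.9 ± 21.7 FPKM in WT blastocysts, against 1019 ± 103 FPKM in Tet3-null and 945 ± 61.6 FPKM in WT 2-cell embryos (SD, n = 2 each). The log2 change was -4.22 in Tet3-null and -4.14 in WT (SE 0.25 each, limma adjusted p = 7.5e-06 and 9.35e-06). Rpl23 moved in the opposite direction, at 1041 and 1037 FPKM in Tet3-null and 944 and 966 FPKM in WT blastocysts, against 468 and 373 FPKM in Tet3-null and 399 and 471 FPKM in WT 2-cell embryos (log2 change 1.31 in Tet3-null and 1.14 in WT, limma adjusted p = 0.00015 and 0.00032).

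Snord100, in the ribosomal protein gene Rps12, was also lower in blastocysts while its host was higher. It reached 428 and 432 FPKM in Tet3-null and 560.2 and 124 FPKM in WT blastocysts, against 3543 and 11806 FPKM in Tet3-null and 3923 and 1580.3 FPKM in WT 2-cell embryos (log2 change -3.91 and -3.23, limma adjusted p = 0.0037 and 0.0091). The blastocyst and 2-cell libraries did not overlap. Without WT 2-cell replicate 1 or WT blastocyst replicate 2 the WT call was lost, at limma adjusted p of 0.0673 and 0.0551. Rps12 reached 1401 and 1542 FPKM in Tet3-null and 1473 and 1501 FPKM in WT blastocysts, against 611 and 653 FPKM in Tet3-null and 555 and 580.2 FPKM in WT 2-cell embryos.

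Snora30, at 73.6 and 53.0 FPKM in Tet3-null and 13.6 and 48.3 FPKM in WT blastocysts, reached 473 and 338 FPKM in Tet3-null and 234 and 251 FPKM in WT 2-cell embryos (log2 change -2.66 in Tet3-null and -3.18 in WT, limma adjusted p = 0.0024 and 0.001). No host of Snora30 is listed in the tables. Snora68 fell in both genotypes, at 753 and 643 FPKM in Tet3-null and 962 and 662 FPKM in WT blastocysts, against 1531 and 1523 FPKM in Tet3-null and 1215 and 1283 FPKM in WT 2-cell embryos. Snora75 ranged over 31.1 to 60.2 FPKM in the blastocyst libraries and 76.7 to 257 FPKM in the 2-cell libraries, and Snora2b over 21.4 to 56.9 and 69.6 to 194 FPKM. Snora34 ranged over 19.8 to 50.6 FPKM in blastocysts and 53.4 to 129 FPKM in 2-cell embryos, and Snord8 over 55.7 to 142 and 172 to 285 FPKM, again without overlap. Snora78 did overlap, with 37.8 to 105 FPKM in blastocysts and 94.4 to 194 FPKM in 2-cell embryos, but not within a genotype. Snora75, in Ncl, Snora2b and Snora34, both in 2310037I24Rik, Snora78, in the non-coding host Snhg9, and Snord8, in the chromatin remodeller gene Chd8, were likewise called lower in blastocysts of both genotypes, by log2 changes between -0.71 and -2.34. Snora5c was called lower in Tet3-null alone, at 0 in both Tet3-null blastocyst libraries against 46.7 and 28.5 FPKM in Tet3-null 2-cell embryos (limma adjusted p = 0.0041, and 0.059 in WT). The difference of its stage change between genotypes had a limma adjusted p of 0.51. The Tet3-null stage comparison also called Snord11 and Snord55 lower, on the 2-cell values given above, as well as Snora3 and Snora81. Snora3, in Rpl27a, had 38.0 and 37.8 FPKM in Tet3-null blastocysts against 126 and 163 FPKM in Tet3-null 2-cell embryos, and Snora81, in Eif4a2, 38.9 and 42.8 FPKM against 69.6 and 114 FPKM. The WT comparison also called Snora7a, Snora64 and Snord104 lower. Snord104, the member with the highest mean log2 level, reached 1620.5 and 1342 FPKM in Tet3-null and 903 and 1265 FPKM in WT blastocysts, against 3209 and 1989 FPKM in Tet3-null and 4001 and 2279 FPKM in WT 2-cell embryos. Snora7a, in Rpl32, had 24.8 and 16.5 FPKM in WT blastocysts against 175 and 114 FPKM in WT 2-cell embryos, while its Tet3-null 2-cell libraries split, at 119.7 and 9.49 FPKM. Snora64 lost its WT call in 11 of 18 alternatives.

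Among members higher in blastocysts, Snord96a and Snord72 were listed at 0 in every 2-cell library. Snord96a, in the ribosomal scaffold gene Gnb2l1, reached 619 and 869.5 FPKM in Tet3-null and 1199.7 and 948 FPKM in WT blastocysts, against 0 in every 2-cell library (fitted differences 9.52 and 10.06, limma adjusted p = 1.89e-07 and 1.87e-07). Gnb2l1 reached 1519.8 and 1581 FPKM in Tet3-null and 1528 and 1558 FPKM in WT blastocysts, against 48.8 and 19.8 FPKM in Tet3-null and 48.3 and 60.1 FPKM in WT 2-cell embryos. Snord72, in an intron of Rpl37, reached 618 and 308 FPKM in Tet3-null and 403 and 1066 FPKM in WT blastocysts, against 0 in 2-cell embryos, and Rpl37 was also called higher in both genotypes (log2 change 1.61 in Tet3-null and 1.54 in WT). Both entries are members only through blastocysts, together with Snord1a, Snord1b, Snord32a and Snord66, so a stage difference was built into their inclusion. Snord32a, in an intron of Rpl13a, was called in Tet3-null alone and lost that call in 7 of 17 alternatives.

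Snord52 had the highest FPKM of the members in every blastocyst library, holding 37.7% to 40.0% of the summed FPKM of members there. It reached 13800.0 and 14296 FPKM in Tet3-null and 15537 and 15084 FPKM in WT blastocysts, against 1249 and 0 FPKM in Tet3-null and 1535 and 1391 FPKM in WT 2-cell embryos. Mean FPKM was 22.5 times higher in Tet3-null blastocysts and 10.5 times higher in WT blastocysts than in the 2-cell embryos of the same genotype. Snord52 was called in Tet3-null (log2 change 8.63, SE 2.74, limma adjusted p = 0.023) but not in WT (log2 change 3.39, SE 2.74, limma adjusted p = 0.29), with a shared error that includes the 0 of 1 Tet3-null 2-cell library. The Tet3-null call was lost in 4 of 18 alternatives. These were leaving out either Tet3-null blastocyst library (limma adjusted p = 0.0807 and 0.0815), using no filter (0.0634) and fitting the compared groups alone (0.0876). Its non-coding host 1110038B12Rik reached 146 and 162 FPKM in Tet3-null and 183 and 173 FPKM in WT blastocysts, against 35.7 and 37.3 FPKM in Tet3-null and 61.7 and 64.6 FPKM in WT 2-cell embryos, and rose by 2.04 in Tet3-null and 1.48 in WT on the log2 scale. This was also the only host of the 53 called between genotypes in 2-cell embryos (log2 change -0.78, SE 0.13, limma adjusted p = 0.038), where 2.72% of all genes were called.

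Snora74a, in the non-coding host Snhg4, and Snord22, a snoRNA needed for maturation of small-subunit ribosomal RNA in Xenopus, rose in both genotypes. Snora74a reached 107 and 77.9 FPKM in Tet3-null and 125 and 122 FPKM in WT blastocysts, against 13.8 and 30.4 FPKM in Tet3-null and 13.1 and 17.0 FPKM in WT 2-cell embryos (log2 change 2.1 and 2.96, limma adjusted p = 0.0011 and 0.0002). Snhg4 rose with it, by 1.45 in Tet3-null and 0.87 in WT. Snord22 reached 216 and 150.2 FPKM in Tet3-null and 173 and 171 FPKM in WT blastocysts, against 56.0 and 38.6 FPKM in Tet3-null and 59.0 and 80.2 FPKM in WT 2-cell embryos (log2 change 1.93 and 1.31, limma adjusted p = 0.00036 and 0.0026). Its non-coding host Snhg1 fell by 0.40 in WT (limma adjusted p = 0.026) and was not called in Tet3-null (log2 change -0.12). Snord87, in an intron of Snhg6, rose by 2.07 in Tet3-null and 2.32 in WT while Snhg6 fell by 0.95 in Tet3-null and fell by 0.83 in WT. It reached 642 and 962 FPKM in Tet3-null and 809 and 869 FPKM in WT blastocysts, against 103 and 336 FPKM in Tet3-null and 247 and 112 FPKM in WT 2-cell embryos.

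The remaining members called higher were not called in both genotypes, apart from Snord47. Snord47 rose by 0.70 in WT blastocysts, and its Tet3-null difference of 10.62 rests on the 0 of both Tet3-null 2-cell libraries. Snord7 was called in Tet3-null alone, and Snora43, Snora65, Snora70, Snord12, Snord33 and Snord89 in WT alone. Snora65, in Rpl12, reached 130.3 and 168 FPKM in Tet3-null and 256 and 243 FPKM in WT blastocysts, against 34.8 and 107 FPKM in Tet3-null and 14.2 and 64.3 FPKM in WT 2-cell embryos (log2 change 1.26 and 2.99, limma adjusted p = 0.15 and 0.007). Snord33, in Rpl13a, reached 622 and 261 FPKM in Tet3-null and 628 and 427 FPKM in WT blastocysts, against 164 and 192 FPKM in Tet3-null and 136 and 61.9 FPKM in WT 2-cell embryos. Snora70, in Rpl10, had 839 and 491 FPKM in WT blastocysts against 370.3 and 251 FPKM in WT 2-cell embryos, and Snora43, in the non-coding host Snhg7, 72.9 and 85.7 FPKM against 29.3 and 6.6 FPKM. For Snora65, Snord33, Snora70 and Snora43, all blastocyst values were above the 2-cell values of the same genotype. The WT calls of Snord12, at 0 and 284 FPKM in WT 2-cell embryos, and Snord89, at 0 in both, were lost in 4 and 3 of 18 alternatives.

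**Figure D4:**
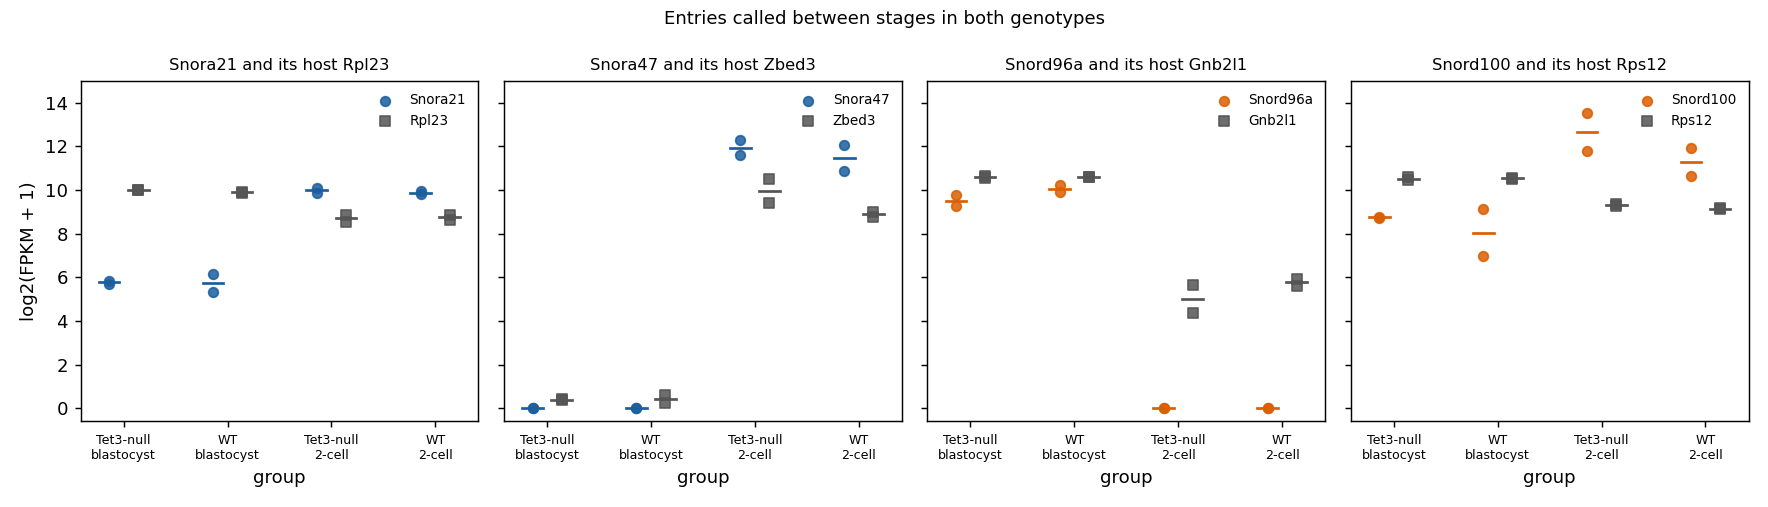
Levels as log2(FPKM + 1) of Snora21, Snora47, Snord96a and Snord100 (circles) and of their hosts Rpl23, Zbed3, Gnb2l1 and Rps12 (squares) in the 2 libraries of each group, with a line at the group mean. Snora47 and Snord96a move between stages in the direction of their hosts, and Snora21 and Snord100 in the opposite direction.

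Taken over all hosts, snoRNA entries and host genes shared a direction in about as many cases as they did not. A host listed in the tables was found for 71 members, with 53 distinct hosts, 20 of them ribosomal protein genes holding 27 members. Entries of 1 host were averaged, since they share their source. The stage difference had the same sign in snoRNA and host for 24 of 53 hosts in Tet3-null (45.3%) and 26 of 53 in WT (49.1%). The genotype difference had the same sign for 22 of 53 hosts in 2-cell embryos (41.5%) and 27 of 53 in blastocysts (50.9%). A snoRNA difference of exactly 0 counts here as no match, and without such hosts the matches were 24 of 53 and 26 of 51 between stages in Tet3-null and WT, and 22 of 50 and 27 of 51 between genotypes in 2-cell embryos and blastocysts. Spearman's rho over hosts was -0.12 and -0.06 for the Tet3-null and WT stage differences, and 0.01 and 0.20 for the 2-cell and blastocyst genotype differences, as descriptions with n = 53. Mean levels of snoRNA and host were also only weakly ordered together (rho 0.26 over 71 pairs).

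The steadier entries and the 2 kinds of position gave similar counts. With only members at 1 FPKM or more in all 8 libraries, signs matched for 12 of 24 hosts in Tet3-null and 13 of 24 in WT between stages. For snoRNAs inside an intron, signs matched for 12 of 25 hosts in Tet3-null and 11 of 25 in WT. For those that overlap an exon of any annotated transcript of the host, signs matched for 13 of 32 hosts in Tet3-null and 16 of 32 in WT. The library kit does not mark strand, and how reads shared with an overlapping exon were assigned is not given in the sources used here.

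Calls of single members gave similar counts. Of 71 members with a host, 17 were called together with their host in Tet3-null, 7 in the same direction and 10 in the opposite one, and 19 in WT, 9 in the same and 10 in the opposite direction. In 36 cases in Tet3-null and 43 in WT the host was called and the snoRNA was not. Of the 53 hosts, the calls were 32 upward and 8 downward in Tet3-null blastocysts, and 32 upward and 14 downward in WT. The pairs with the same direction in both genotypes were Snora47 with Zbed3, Snora74a with Snhg4, Snora78 with Snhg9, Snord72 with Rpl37 and Snord96a with Gnb2l1. Of these, Snora47, Snord72 and Snord96a are members through 1 stage alone, which fixed their direction.

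**Figure D5:**
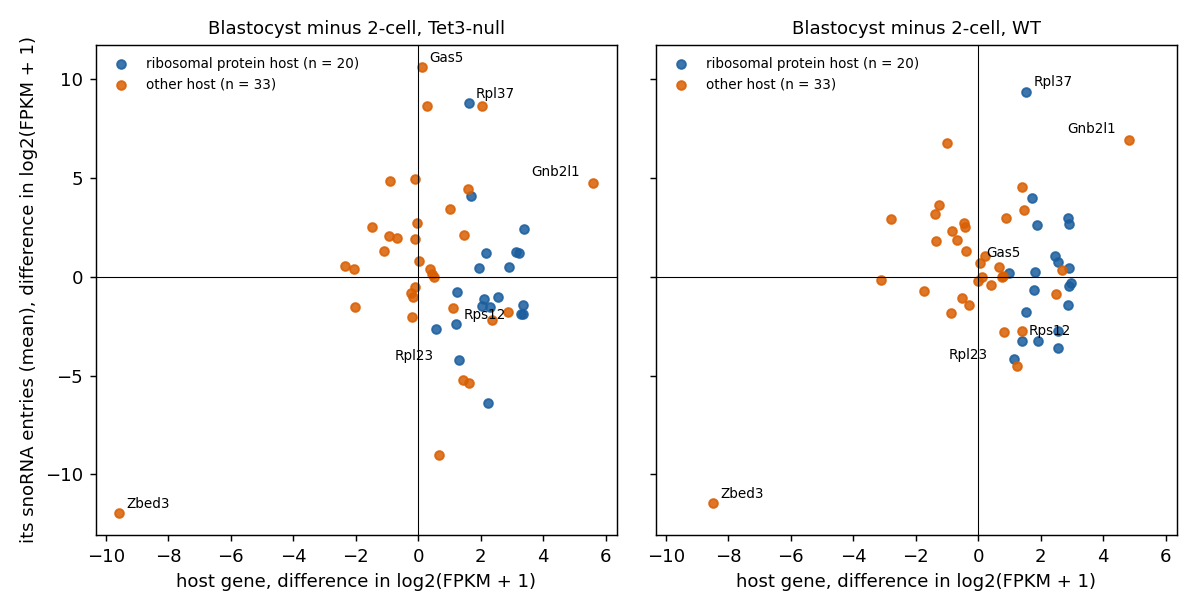
Blastocyst minus 2-cell difference in log2(FPKM + 1) of the snoRNA entries of each host, averaged (vertical), against that of the host gene (horizontal), for 53 hosts in Tet3-null and WT embryos. Ribosomal protein hosts (n = 20) all lie to the right of 0 while their snoRNAs lie on both sides of 0, and 24 hosts in Tet3-null and 26 in WT have matching signs.

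Of the listed genes that make and process snoRNAs, none was called between genotypes at either stage. The list of non-coding hosts does not hold 1110038B12Rik, which was called between genotypes in 2-cell embryos and between stages, as given above. Across 6 lists (box C/D and box H/ACA core proteins, assembly factors, intron release and trimming enzymes, transport and cap proteins, and non-coding hosts), 0 of 44 genes tested were called by limma in 2-cell embryos and 0 in blastocysts, with an unadjusted p under 0.05 for 9 and 1 of them. Over all genes, limma called 2.72% in 2-cell embryos and 0.0664% in blastocysts, with an unadjusted p under 0.05 for 3212 and 740 of 13549. With such shares, few or no calls among 44 genes say little about these lists. Between stages, limma called 29 of the 44 in Tet3-null (65.9%) and 33 in WT (75%), against 74% of all genes in Tet3-null and 74.3% in WT. Of 4 box C/D core proteins, 3 were higher and 1 lower in Tet3-null blastocysts, and 2 higher and 1 lower in WT. Fbl, the methyltransferase of the complex, rose by 0.74 in Tet3-null and 1.03 in WT, and Nhp2l1, which binds the box C and D turn, fell by 1.26 and 1.64. Of 4 box H/ACA core proteins, 2 were higher and 1 lower in Tet3-null, and 0 higher and 2 lower in WT, with Dkc1, the pseudouridine synthase, lower by 0.68 and 0.64 on the log2 scale. Of 11 assembly factors, 4 were higher and 4 lower in Tet3-null and 3 higher and 4 lower in WT. Ruvbl2, a helicase-like assembly factor, reached 463 and 441 FPKM in Tet3-null and 429 and 416 FPKM in WT blastocysts, against 11.9 and 8.27 FPKM in Tet3-null and 15.2 and 17.1 FPKM in WT 2-cell embryos. Tgs1, which trimethylates the cap of snoRNAs transcribed on their own, had log2 changes of -3.42 in Tet3-null and -3.35 in WT. Of 8 release and trimming genes, 2 were higher and 2 lower in Tet3-null and 2 higher and 5 lower in WT, and of 4 transport and cap genes 1 was higher and 2 lower in Tet3-null and 1 higher and 3 lower in WT. Of the 13 listed non-coding hosts tested, 1 was higher, Snhg4, and 6 lower in Tet3-null, and 1 higher and 9 lower in WT.

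MicroRNA entries, another set of very short genes, gave a comparison. Of 611 listed, 104 passed the same minimum. Between genotypes, Tet3-null 2-cell embryos had 4 of these higher and 0 lower, against 0.613% of all genes upward and 2.1% downward. Tet3-null blastocysts had 1 higher and 7 lower, where 0 snoRNA entries were called. Over all genes only 2 were called higher and 7 lower there, so all lower calls were microRNA entries. For the difference between stages, microRNA entries were 1 of 7 upward and 9 of 12 downward calls. Between stages, Tet3-null blastocysts had 20 higher and 18 lower, against 38.9% of all genes upward and 35.1% downward. WT blastocysts had 21 higher and 13 lower, against 35.8% and 38.4%.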

How the data were processed

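RNA-seq values of 8 libraries (4 groups of 2) were used as deposited, in FPKM per gene. The submitters' processing notes name TopHat2 2.0.10, Bowtie2 2.1.0, Cufflinks 2.2.0 and the build mm9, with no role for each. Which annotation and settings they used, how shared reads were handled, and the read totals are not given here. No label or header names the unit of the deposited values, and FPKM is inferred from Cufflinks and from the values. The deposited FPKM tables were transformed to log2(FPKM + 1). Genes were kept if 2 or more libraries reached 1 FPKM, which left 13549. A limma 3.58.1 model (R 4.3.3) with a mean for each of the 4 groups was moderated with an intensity trend, on 4 residual plus 3.07 prior degrees of freedom. All tests were two-sided, with Benjamini-Hochberg adjustment over all genes and a call at 0.05. The script was tested on simulated data with known changes. Changes on this scale understate those of weakly expressed genes, and where a group is listed at 0 their size is set by the pseudocount.

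Hosts were assigned by containment on the same strand in GENCODE M21 (68 members). Where that gave none, containment in RefSeq was used without comparing strand (3 members). By an older symbol, 5 hosts were matched. Both annotations are of GRCm38, so no coordinates are given. Relative depth within a stage was estimated as the commonest ratio of low values between libraries. Spearman correlations were computed with scipy 1.17.1 and carry no p. The members, the gene lists and the tests were chosen with earlier results of these data known. Named with values were members called between genotypes, the 8 highest on average and those at 1 FPKM or more in all 8 libraries. So were up to 5 per direction called between stages, and members of the Gas5, Snhg1, Rpl13a, Nop56 and Nop58 loci. Exceptions in the Rpl13a locus were Snord32a, given without FPKM, and Snord34, not described. Snord99, Snora20, Snord82 and Snord95 were named outside this rule, with their values known. The values of some host genes and 1 snoRNA sequence are not reported here. Alternatives changed the pseudocount, the filter, the scaling, the libraries fitted and the replicate block. Deviations of same-numbered libraries correlated at -0.076 in 2-cell embryos and 0.018 in blastocysts. These values show no large shared effect of the replicate number, but cannot tell whether same-numbered libraries were handled together.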

Additional observations from a re-analysis of the deposited data

Results flagged for a closer look

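The Tet3-null effect differed between stages for 3 snoRNA entries by limma's test of that difference. The blastocyst effect minus the 2-cell effect on the log2(FPKM + 1) scale was 9.91 for Snord47, -9.0 for Snord11 and -8.06 for Snord55. Each size is set by the pseudocount, because 1 genotype was listed at 0 in both of its 2-cell libraries. All non-zero 2-cell values of these entries lay between 1 and 1.91 steps of their smallest value. Gas5 and Nop58, the hosts of Snord47 and Snord11, were not called between genotypes at the 2-cell stage. The part of step size in these 3 results was not tested.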

How the results depend on the processing

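The 3 members called between genotypes in 2-cell embryos remained called under every alternative but 2 kinds. Fitting the 2-cell groups alone left 2 of them, without Snord11, and a filter of at least 1 FPKM in at least 4 libraries left 1, Snord47, because Snord11 and Snord55 no longer passed it. That filter also left 1 of 3 members whose genotype effect differed between stages, and it lowered the share of member values at 0 to 14.6%, against 22.1%. In blastocysts, fitting the 2 groups alone called 1 member, Snord82, against 0. Leaving out each library in turn gave 3 to 13 calls in 2-cell embryos, with 13 without Tet3-null 2-cell replicate 1 and 6 without WT 2-cell replicate 1. It gave 0 to 2 calls in blastocysts, with Snord57, Snord82, Snord95, Snora5c and Snord32a appearing in turn, and 3 to 11 for the difference between stages, with 11 without Tet3-null 2-cell replicate 1 and 5 without WT 2-cell replicate 2 or WT blastocyst replicate 1. In such fits the lone library of a group is assumed to vary like the others, and the cause of these changes was not tested.

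Stage calls numbered 20 to 30 in Tet3-null and 19 to 27 in WT over all alternatives, against 24 and 25. Scaling by the median of ratios changed the all-gene median of the 2-cell genotype change to 0.02, against -0.17, and kept the same 3 calls. Of 458 values recomputed for 26 single-member results, 426 kept their call, 32 lost it and 0 turned direction. With the replicate block the calls were 3 in 2-cell embryos, 0 in blastocysts, 28 between stages in Tet3-null, 26 in WT and 3 for the difference. Whether the replicate numbers pair the samples is not known. The difference between stages uses all groups, so no fit of compared groups alone was made for it. Depth is unknown, so no counting interval can be given, and for the 35 members under 100 nt the smallest value above 0.01 FPKM had a median of 220.9 FPKM.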
